A study of Mus musculus with 8 samples.

Results

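Astrocytes were taken as the nuclei that the deposited cell table names Astro, matched to the count matrix by barcode order. They numbered 9486 of 102330 nuclei from 8 libraries of mouse primary visual cortex (V1), profiled by single-nucleus RNA sequencing (snRNA-seq). The UMIs (unique molecular identifiers, 1 per captured RNA molecule) of each gene were summed over the astrocyte nuclei of a library, and all comparisons between conditions ran on these 8 sums. Levels are given as counts per 1000000 of the library's astrocyte UMIs (CPM). The name held against its markers. Aqp4, the astrocyte water channel, averaged 148 ± 39.0 CPM (SD, n = 8 libraries), against 12.3 CPM in the next highest of the 20 named cell types. Aldh1l1, a folate enzyme used to mark astrocytes, averaged 162 ± 32.8 CPM, against 20.1 CPM. Slc1a3, a glutamate transporter, averaged 2828 ± 278 CPM, against 1088 CPM in vascular leptomeningeal cells. Gja1, which encodes the gap junction protein connexin 43, averaged 145 ± 12.4 CPM, against 104 CPM in the same cells. All 9 astrocyte markers tested were highest in the nuclei named Astro.

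All mice were GR fl/fl, with a floxed Nr3c1 gene, and were taken at postnatal day 21 (P21). Each was injected at birth with AAV2/5 carrying GfaABC1D, a short astrocyte promoter, ahead of T2A-EGFP-CAAX-4x6T-WPRE. In GR-KO mice the promoter drove Cre recombinase, and in GR-Con mice it drove ΔCre, the control form. Controls therefore carried the floxed gene, the virus and EGFP as well. Mice were reared normally (NR) or in darkness (DR), which gave 4 groups of 2 libraries, each with 1 male and 1 female library. The labels name 1 animal for each library, so that sex and individual cannot be told apart within a group. Neither the share of astrocytes that the virus reached nor the share with the deletion was measured here, and each GR-KO sum may mix nuclei with and without it. The sample protocol describes sorting by the DNA dye DRAQ5, while the study's methods describe DRAQ5-positive, GFP-negative events. EGFP-CAAX is anchored to membranes, and nuclei with EGFP UMIs were present.

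Libraries held 924 to 1794 astrocyte nuclei and 5462791 to 11585703 astrocyte UMIs, with a median of 4889 to 12123.5 UMIs per nucleus. The astrocyte share of nuclei ran from 7.19 to 11.8% and averaged 9.34 ± 1.18% (SD, n = 4) in GR-KO and 9.17 ± 1.96% (n = 4) in GR-Con (exact permutation test, 2-sided, p = 0.886). As a share of non-neuronal nuclei, GR-KO minus GR-Con was -7.05 percentage points (exact permutation p = 0.0857). In such sums, fewer cells that express a gene and less RNA per cell cannot be told apart. The NR GR-KO libraries were the deepest per nucleus (8662 and 12123.5 UMIs, against 4889 to 7199 elsewhere) and held more UMIs of the markers of neurons, oligodendrocytes and their precursors. The 11 excitatory neuron markers took 0.0361 to 0.0380% of their astrocyte UMIs and 0.0219 to 0.0316% elsewhere. Between the genotypes over both rearings the exact permutation p was 0.229 (n = 4 each), which does not test NR GR-KO by itself. In DR the genotypes overlapped (0.0263 to 0.0272% in GR-KO and 0.0219 to 0.0278% in GR-Con). In NR GR-KO and elsewhere, in that order, the 10 inhibitory neuron markers took 0.00845 to 0.0101% and 0.00394 to 0.00606%, the 10 oligodendrocyte markers 0.0194 to 0.0252% and 0.0106 to 0.0179%, and the 8 markers of oligodendrocyte precursors 0.00369 to 0.00420% and 0.00280 to 0.00317%. The 8 markers of pericytes and smooth muscle went the other way, with 0.0109 to 0.0113% in NR GR-KO and 0.0122 to 0.0128% in NR GR-Con. The 7 markers of vascular leptomeningeal cells took 0.0191 to 0.0249% and 0.0247 to 0.0263%, and the microglia and endothelial markers overlapped between these groups. The 9 astrocyte markers took 1.26 to 1.29% in NR GR-KO and 1.49 to 1.56% in NR GR-Con. No marker of any list was at 0 over the 8 libraries together, and 7 were at 0 in at least 1 library. Genes whose CPM in excitatory neurons was 4 or more times their astrocyte CPM were therefore set apart as neuron-enriched, and the counts below leave them out unless stated. Of the 1181 neuron-enriched genes tested between the NR groups, 322 passed the test, and 313 of these were higher in GR-KO. The part of other cells' RNA in the remaining results was not tested. The DR GR-Con male library stood apart from its female partner, and for most calls that rest on it the value or call without it is given as well. Across libraries, 1220 barcode sequences occurred more than once, 6 of them among astrocytes.

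The glucocorticoid receptor (GR), encoded by Nr3c1, is a steroid hormone receptor. It is held in the cytoplasm by chaperones until it binds corticosterone, the main glucocorticoid of rodents, and then enters the nucleus and binds DNA as a dimer at palindromic elements. Among the genes it induces in many tissues are its own feedback inhibitor Fkbp5, the leucine zipper gene Tsc22d3 (GILZ), the clock gene Per1 and the metallothioneins. Astrocytes express the receptor strongly, and in cortex they take up glutamate and potassium, store glycogen, couple through gap junctions and mature over the first postnatal weeks. Nr3c1 itself was measured at 231 CPM in the male and 221 CPM in the female library of NR GR-Con, and at 284 and 268 CPM in NR GR-KO. In DR it stood at 263 and 207 CPM in GR-Con and at 274 and 275 CPM in GR-KO. The gene did not pass the test in either rearing. Its UMIs were counted per gene and their place in the gene was not looked at, so that they do not show the state of the floxed exon. Cre UMIs were 0 in the 4 GR-Con libraries and lay between 4.14 and 10.4 CPM in the 4 GR-KO libraries, as labelled. UMIs assigned to ΔCre were found in all 8 libraries, at 2.51 to 6.96 CPM.

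The receptor's binding element was looked for in promoters, since many genes moved together between the genotypes. The element was spelled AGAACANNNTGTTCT, a palindrome that reads alike on both strands, with mismatches counted over its 12 fixed letters. Its half-site TGTTCT was searched on both strands and is part of the palindrome. The windows were RefSeq promoters of GRCm38.p6, from 250 bases before to 50 bases after each annotated start. Of 480 genes that were lower in GR-KO astrocytes in NR, 370 had a window. The exact palindrome occurred in 0 of them, a form with at most 1 mismatch in 1 (0.27%) and with at most 2 mismatches in 9 (2.43%). Over all 10868 tested genes with a window, these shares were 0.0092%, 0.092% and 1.24%, and over all 32851 windows of the build 0.00913%, 0.164% and 1.84%. Of the 163 genes with a window that were higher in GR-KO, 4 (2.45%) held a form with at most 2 mismatches. The half-site was in 15.4% of the lower genes, 15.3% of the higher genes, 15.1% of all tested genes and 19% of all windows. The 4 windows shown here were chosen after their values were seen. They are the 1 exact match among tested genes (Sgk1), the 1 match with a single mismatch among the lower genes (Plce1) and matches with 2 mismatches in Fam107a and Sult1a1, which are described further on. Other tested genes held a form with 1 mismatch and other lower genes one with 2. Of 17 genes with a window on the list of glucocorticoid-induced genes used below, only 2 held a form with at most 2 mismatches. These were Sgk1 and Sult1a1, both shown here, and 3 of the 17 held the half-site. Each line gives the 250 bases before the start in the gene's own direction, with the element in capitals.
Sgk1, chr10:21993640-21993889, plus strand: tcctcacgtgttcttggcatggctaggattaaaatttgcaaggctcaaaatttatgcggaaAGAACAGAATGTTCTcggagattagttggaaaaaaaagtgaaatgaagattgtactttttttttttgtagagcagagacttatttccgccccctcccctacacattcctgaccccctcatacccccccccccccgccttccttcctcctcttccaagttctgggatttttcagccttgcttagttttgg
Plce1, chr19:38523947-38524196, plus strand: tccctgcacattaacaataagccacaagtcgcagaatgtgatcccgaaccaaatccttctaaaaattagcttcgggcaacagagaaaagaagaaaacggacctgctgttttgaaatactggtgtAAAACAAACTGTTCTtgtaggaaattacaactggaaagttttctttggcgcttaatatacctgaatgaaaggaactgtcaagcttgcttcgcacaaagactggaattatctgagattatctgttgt
Fam107a, chr14:8309778-8310027, minus strand: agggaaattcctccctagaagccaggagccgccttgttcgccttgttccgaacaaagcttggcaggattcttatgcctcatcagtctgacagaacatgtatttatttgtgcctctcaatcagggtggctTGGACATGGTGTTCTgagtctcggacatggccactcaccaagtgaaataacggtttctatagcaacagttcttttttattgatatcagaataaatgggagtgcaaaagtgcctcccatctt
Sult1a1, chr7:126676419-126676668, minus strand: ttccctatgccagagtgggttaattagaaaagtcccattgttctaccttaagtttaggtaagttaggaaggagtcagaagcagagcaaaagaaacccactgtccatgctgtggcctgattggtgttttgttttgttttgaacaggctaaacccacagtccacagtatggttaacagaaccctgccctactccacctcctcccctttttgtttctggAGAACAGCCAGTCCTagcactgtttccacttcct
The first base of the element lay 189, 126, 121 and 34 bases before the start, in that order. A match describes letters in a window and shows no binding, and a window without the letters says nothing of elements elsewhere. Sgk1, a kinase gene known as a glucocorticoid target, stood at 10.1 and 9.71 CPM in NR GR-Con and at 10.6 and 11.7 CPM in NR GR-KO, and did not pass the test (log2 fold change 0.10 ± 0.20 SE, edgeR adjusted p = 0.923). Plce1, which encodes a phospholipase C, fell by 0.79 on the log2 scale (edgeR adjusted p = 2.04e-05).

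With normal rearing, GR-KO astrocytes had less RNA of most glucocorticoid-responsive genes listed and of some mature astrocyte genes, and more of some matrix and immature astrocyte genes. Of 13312 genes, 228 (1.71%) were higher, Cre among them, and 480 (3.61%) lower in GR-KO than in GR-Con at an adjusted p under 0.05 (edgeR likelihood ratio test, 2 against 2 libraries). The median log2 fold change over these genes was -0.02. The number of calls changed with the test, the libraries and the nuclei used, as set out at the end. Genes named by size or level were chosen among those with groups apart, so that their separation is no further support. List members were named partly by their small p. With 2 libraries a side, groups often lie apart by order alone, and the share of all genes with groups apart was not counted. Separation is therefore no further support for list members either. The largest fall among well expressed genes was in Etnppl (chr3:130617448-130637521, GRCm38.p6), a phospholyase that breaks down phosphoethanolamine and is largely astrocytic in brain. It stood at 285 CPM in the male and 203 CPM in the female GR-Con library, and at 28.7 and 29.3 CPM in GR-KO. Both control values exceeded both GR-KO values, by a log2 fold change of -3.14 ± 0.19 (SE; edgeR adjusted p = 5.58e-52). Hif3a (chr7:17031507-17062427), a hypoxia-inducible factor subunit and known glucocorticoid-responsive gene, stood at 334 and 272 CPM in GR-Con and at 75.2 and 68.9 CPM in GR-KO (a log2 fold change of -2.14 ± 0.16, edgeR adjusted p = 1.38e-35). The 2 GR-KO values nearly coincided and lay far below both controls. Phyhd1, which encodes a dioxygenase, stood at 75.7 and 64.5 CPM in GR-Con and at 20.4 and 13.1 CPM in GR-KO (-2.14 ± 0.20, edgeR adjusted p = 3.14e-22). Ccnd3, the cell cycle regulator cyclin D3, stood at 305 and 184 CPM in GR-Con and at 68.6 and 49.6 CPM in GR-KO (-2.11 ± 0.25, edgeR adjusted p = 4.14e-14). For both genes the groups did not overlap, which their choice required.

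Rhou, an atypical small GTPase, stood at 208 and 164 CPM in GR-Con and at 60.2 and 53.6 CPM in GR-KO (a log2 fold change of -1.78 ± 0.16, edgeR adjusted p = 4.2e-23). Lrrc8c, a subunit of the volume-regulated anion channel, stood at 267 and 127 CPM in GR-Con and at 75.6 and 44.4 CPM in GR-KO (-1.78 ± 0.34, edgeR adjusted p = 1.83e-05). In Lrrc8c, as in Ccnd3, the male library was the higher of both pairs. Fkbp5 (chr17:28399094-28517527), the co-chaperone that restrains GR, showed the same order with a wider spread. It stood at 129 and 47.6 CPM in GR-Con and at 21.9 and 4.92 CPM in GR-KO (-2.79 ± 0.58, edgeR adjusted p = 0.000287). Zbtb16, a zinc finger repressor induced by glucocorticoids, stood at 227 and 107 CPM in GR-Con and at 61.4 and 37.6 CPM in GR-KO (-1.82 ± 0.33, edgeR adjusted p = 8.36e-06). The libraries within a group differed, and Fkbp5 and Lrrc8c did not pass with DESeq2. All of these genes had to have their groups apart to be named. Single libraries moved the sizes of 3 of them, with Fkbp5 at -4.21 without the NR GR-KO male library, and Zbtb16 at -1.19 and Lrrc8c at -1.16 without the NR GR-Con male library, all still called.

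**Figure D1:**
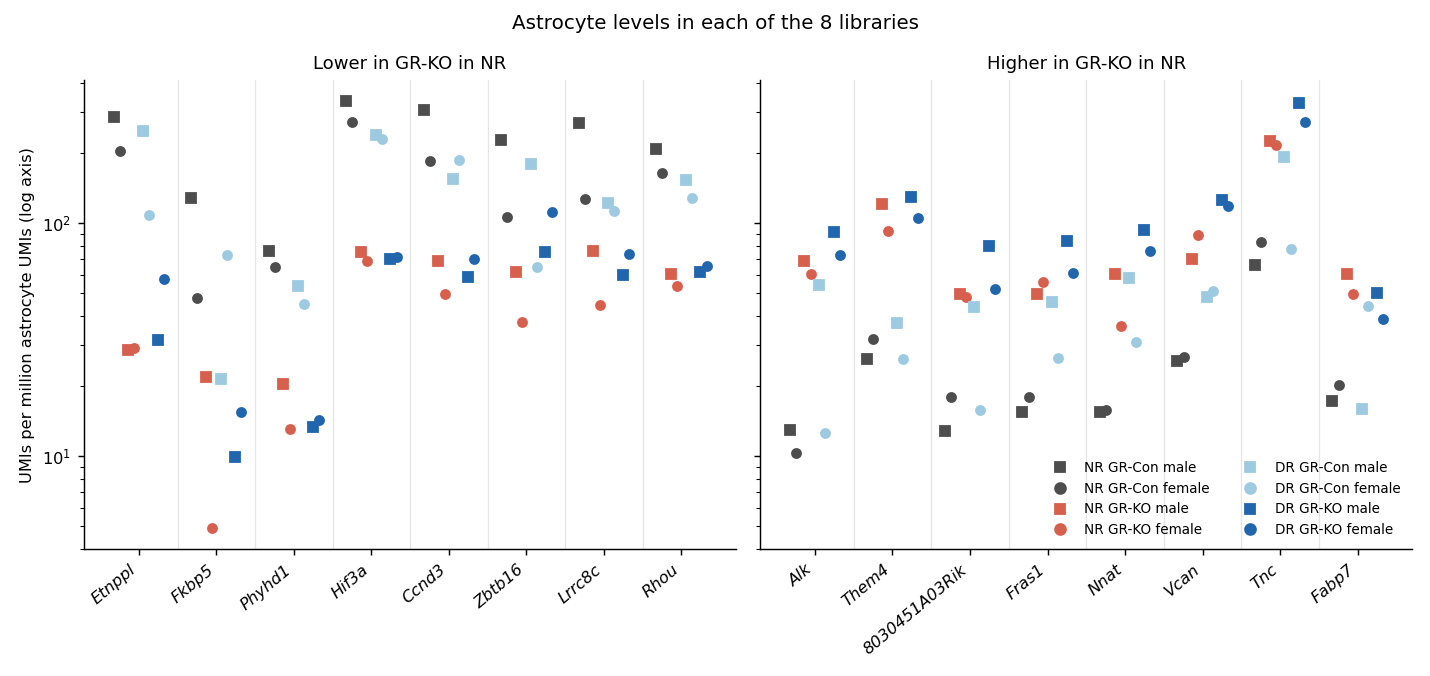
Levels of the 16 genes with the largest genotype difference in NR among well expressed astrocyte genes, as astrocyte CPM (log axis) in each of the 8 libraries, with the 8 lower genes in the left panel and the 8 higher genes in the right panel. Squares are male and circles female libraries. Etnppl stood at 203 to 285 CPM in NR GR-Con and at 28.7 to 29.3 CPM in NR GR-KO, and for Alk and Tnc the DR GR-Con male library (54.4 and 192 CPM) lay closer to the GR-KO libraries than its female partner did.

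Of the list of 20 genes known to be induced by glucocorticoids, 19 were not neuron-enriched and passed the filter on low counts, and 14 of these were lower in GR-KO and 0 higher, against 3.61% and 1.71% of all genes. Their median log2 fold change was -0.91. This and the other lists were chosen with earlier results of these data known, so that their counts are no independent support. Besides Fkbp5, Zbtb16 and Hif3a, the signalling regulators on the list fell. Tsc22d3 (GILZ), an inhibitor of inflammatory transcription factors, stood at 90.1 and 65.4 CPM in GR-Con and at 42.1 and 25.8 CPM in GR-KO (-1.27 ± 0.23, edgeR adjusted p = 5.88e-06). Klf9, a Krüppel-like factor, stood at 216 and 232 CPM in GR-Con and at 107 and 129 CPM in GR-KO (-0.98 ± 0.16, edgeR adjusted p = 9.09e-08). Per1 stood at 61.6 and 66.8 CPM in GR-Con and at 41.4 and 30.5 CPM in GR-KO (-0.91 ± 0.17, edgeR adjusted p = 5.02e-06). No GR-KO library reached a GR-Con library in any of these 3 genes, which is no further support, as said above.

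The metal-binding and metabolic members fell as well. Mt1 stood at 112 and 136 CPM in GR-Con and at 78.2 and 79.8 CPM in GR-KO (-0.72 ± 0.16), and Mt2 at 39.9 and 46.6 and at 28.1 and 22.7 CPM (-0.84 ± 0.18). Both encode metallothioneins, which bind zinc and copper. Sult1a1, a sulfotransferase whose promoter is printed above, stood at 31.1 and 19.6 CPM in GR-Con and at 5.33 and 3.28 CPM in GR-KO (-2.64 ± 0.29, edgeR adjusted p = 1.95e-16). The remaining genes that fell were Errfi1, Nfkbia, Plin4, Cables1 and Map3k6. Nfkbia, the inhibitor of NF-κB, stood at 37.8 and 35.5 CPM in GR-Con and at 26.4 and 17.2 CPM in GR-KO (-0.83 ± 0.21), and Map3k6 was near the detection limit at 0.345 to 2.60 CPM. Pdk4, Dusp1, Ddit4, Arl4d and Tsc22d4 did not pass the test, and Sgk1 was set apart as neuron-enriched (125 CPM in excitatory neurons). Pdk4, a kinase that restrains pyruvate oxidation, stood at 26.6 and 20.5 CPM in GR-Con and at 37.3 and 31.0 CPM in GR-KO (0.47 ± 0.19, edgeR adjusted p = 0.127), so that its difference had the opposite sign.

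Genes higher in GR-KO astrocytes included receptors, matrix proteins and carriers. Alk (chr17:71868972-72604627), a receptor tyrosine kinase for which pleiotrophin is a reported ligand, stood at 13.0 and 10.3 CPM in NR GR-Con and at 68.8 and 60.2 CPM in NR GR-KO (log2 fold change 2.40 ± 0.18, edgeR adjusted p = 1.62e-37). Ptn, which encodes pleiotrophin, stood at 836 and 1084 CPM in GR-Con and at 1696 and 1587 CPM in GR-KO (0.71 ± 0.19, edgeR adjusted p = 0.00379). Both genes were higher in each GR-KO library than in either control, which their choice required. Alk is also an inhibitory neuron gene, at 473 CPM in inhibitory neurons and 3.65 CPM in excitatory neurons. Them4, a mitochondrial thioesterase, stood at 26.0 and 32.0 CPM in GR-Con and at 121 and 92.4 CPM in GR-KO (1.81 ± 0.18, edgeR adjusted p = 4.31e-19). Fras1, an extracellular matrix protein of basement membranes, stood at 15.5 and 17.9 CPM in GR-Con and at 49.6 and 55.8 CPM in GR-KO (1.60 ± 0.18, edgeR adjusted p = 3.51e-17), with 115 CPM in excitatory neurons. Nnat, the imprinted gene of the membrane protein neuronatin, stood at 15.5 and 15.8 CPM in GR-Con and at 60.6 and 36.3 CPM in GR-KO (1.56 ± 0.25, edgeR adjusted p = 5.54e-08). The control pairs of these genes lay close together, below both GR-KO values. Ptn did not pass without the NR GR-Con male library, nor Nnat (1.14) in nuclei with 0 excitatory marker UMIs. Those nuclei numbered only 45 and 39 in the NR GR-KO libraries, 176 and 355 in NR GR-Con and 158 to 645 in the DR libraries.

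Some abundant astrocyte transcripts differed by less than 2-fold. Slco1c1, the thyroxine transporter, stood at 693 and 735 CPM in GR-Con and at 1074 and 1164 CPM in GR-KO (a log2 fold change of 0.58 ± 0.16, edgeR adjusted p = 0.00596). Rora, an orphan nuclear receptor of the clock, stood at 6184 and 6144 CPM in GR-Con and at 3802 and 3528 CPM in GR-KO (-0.81 ± 0.16, edgeR adjusted p = 2.66e-05). Lsamp, a cell adhesion gene and one of the most abundant transcripts of these nuclei, stood at 20780 and 21030 CPM in GR-Con and at 15098 and 16117 CPM in GR-KO (-0.49 ± 0.17, edgeR adjusted p = 0.0481). In each gene the groups did not overlap, which their choice required, and the libraries of a group differed by less than the groups. The other abundant genes chosen by the same rule were Lrp1b (0.65), Adcy2 (0.68) and Gabra2 (0.62), which were higher, and Mdga2 (-0.74), Kirrel3 (-0.49) and Trpm3 (-0.56), which were lower. Of 12 alternative fits, Lsamp lost its call in 8 and Kirrel3 in 7, each of the 4 that leave out 1 library among them. Trpm3 lost it in 4, Slco1c1, Lrp1b, Adcy2 and Gabra2 in 3 each, mostly where 1 library was left out, and Mdga2 in 1, while Rora kept it in all 12. Lrp1b, a lipoprotein receptor, reached 2525 CPM in excitatory neurons against 1065 to 2067 CPM in NR astrocytes.

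The list of 20 genes that mark maturing and mature astrocytes moved unevenly. Of its 19 genes tested, 7 fell and 1 rose in NR GR-KO, against 3.61% lower and 1.71% higher of all genes, with a median log2 fold change of -0.38. Fam107a, an actin-associated stress gene whose promoter is printed above, stood at 365 and 355 CPM in GR-Con and at 150 and 168 CPM in GR-KO (-1.24 ± 0.15, edgeR adjusted p = 2.79e-13). Gjb6, which encodes connexin 30, stood at 297 and 246 CPM in GR-Con and at 132 and 115 CPM in GR-KO (-1.21 ± 0.16, edgeR adjusted p = 1.68e-11). Aldh1a1, a retinaldehyde dehydrogenase, stood at 500 and 475 CPM in GR-Con and at 199 and 262 CPM in GR-KO (-1.14 ± 0.18, edgeR adjusted p = 1.05e-07). No GR-KO value reached a control value in these genes, which is again no further support. Cyp4f15 (-1.10), Ezr (-0.95), Aldoc (-0.89) and Etnppl (-3.14) were the others that fell. Aqp4 went the other way, from 116 and 95.3 CPM in GR-Con to 181 and 174 CPM in GR-KO (0.69 ± 0.15, edgeR adjusted p = 0.000176). Gja1, which encodes connexin 43, stood at 146 and 141 CPM in GR-Con and at 166 and 133 CPM in GR-KO and did not pass the test (-0.01 ± 0.15, 95% interval -0.31 to 0.29). Of the 2 connexin genes, Gjb6 was apart between the genotypes and Gja1 overlapped. Kcnj10, the Kir4.1 potassium channel, lay between 111 and 115 CPM in all 4 libraries (95% interval -0.35 to 0.18), and Slc1a3, a marker of the cells, did not pass the test (-0.22 ± 0.16). Aldh1l1, another marker, fell from 204 and 209 CPM to 144 and 134 CPM (-0.64 ± 0.14, edgeR adjusted p = 0.000155).

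Of the list of 19 immature astrocyte and radial glia genes, 17 were tested, and 5 rose and 0 fell (1.71% and 3.61% of all genes), with a median of 0.43. Tnc (chr4:63959785-64047015), which encodes the matrix protein tenascin C, stood at 66.4 and 83.0 CPM in GR-Con and at 225 and 217 CPM in GR-KO (1.50 ± 0.16, edgeR adjusted p = 8.4e-18). Vcan, the chondroitin sulfate proteoglycan versican, stood at 25.6 and 26.7 CPM in GR-Con and at 70.4 and 88.9 CPM in GR-KO (1.55 ± 0.17, edgeR adjusted p = 2.05e-16). Fabp7, a brain fatty acid binding protein of radial glia, stood at 17.3 and 20.2 CPM in GR-Con and at 60.6 and 49.6 CPM in GR-KO (1.49 ± 0.18, edgeR adjusted p = 2.17e-14). In these 3 genes both GR-KO values lay far above both control values. Hopx, a homeodomain cofactor, stood at 11.1 and 13.0 CPM and at 31.7 and 28.6 CPM (1.26 ± 0.19, edgeR adjusted p = 1.54e-09), and the organic anion transporter gene Slco1b2 was the fifth (0.96 ± 0.30, edgeR adjusted p = 0.0276). The intermediate filament genes Nes (1.10 and 1.34 against 2.37 and 1.99 CPM) and Vim (7.81 and 8.36 against 9.96 and 6.99 CPM) did not pass the test. Neither did Ptprz1, which was abundant at 2298 to 2592 CPM in the 4 libraries (0.09 ± 0.16). Tnc lies on the minus strand opposite 8030451A03Rik (chr4:63979854-64149924), which also rose (12.9 and 17.9 against 49.8 and 48.2 CPM, 1.61 ± 0.19). The study's methods give default Cell Ranger settings, which count only reads in a gene's sense direction.

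Matrix enzymes moved in both directions. Of 17 metalloproteinase and inhibitor genes tested, 5 rose and 2 fell, beside 1.71% and 3.61% of all genes, with a median of -0.02. Adamts5, an aggrecanase, stood at 19.6 and 22.6 CPM in GR-Con and at 35.8 and 49.2 CPM in GR-KO (0.96 ± 0.21, edgeR adjusted p = 0.000206). Mmp14, a membrane-bound collagenase, stood at 9.86 and 7.17 CPM in GR-Con and at 20.9 and 18.1 CPM in GR-KO (1.12 ± 0.21, edgeR adjusted p = 4.47e-06). Adamts16 (1.21), Adamts12 (1.06) and Adamts9 (0.46) were the other genes that rose. Adamts20, which belongs to the same family of secreted proteases, stood at 64.4 and 62.3 CPM in GR-Con and at 29.6 and 25.8 CPM in GR-KO (-1.26 ± 0.14, edgeR adjusted p = 7.31e-16). Its 2 libraries nearly coincided in each group and the groups lay far apart. Timp4, a metalloproteinase inhibitor, fell by 0.57. Of 15 lectican, tenascin and hyaluronan genes, Vcan, Tnc and the hyaluronan receptor Cd44 (0.80 ± 0.22, edgeR adjusted p = 0.00793) rose and 0 fell, with a median of 0.15.

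Clock and carbohydrate genes that passed the test were all lower, as were 3.61% of all genes. Of 18 circadian clock genes, 5 fell and 0 rose (median -0.29). Npas2, the CLOCK paralogue, stood at 418 and 291 CPM in GR-Con and at 202 and 173 CPM in GR-KO (-0.98 ± 0.20, edgeR adjusted p = 4.3e-05). Ciart, a circadian repressor, stood at 25.2 and 25.7 CPM and at 15.4 and 14.8 CPM (-0.81 ± 0.17, edgeR adjusted p = 5.47e-05), and Per1, Per2 (-0.49) and Rora completed the 5. Dbp, a clock output factor, did not pass (73.7 and 83.2 against 54.9 and 77.6 CPM). Of 21 glycolysis, glycogen and lactate genes, 6 fell and 0 rose (median -0.18). Pygm, a glycogen phosphorylase, stood at 48.6 and 32.3 CPM in GR-Con and at 19.9 and 12.9 CPM in GR-KO (-1.37 ± 0.26, edgeR adjusted p = 6.68e-06). The groups did not overlap, and the male library was the higher of both pairs. Aldoc, Pcx (-0.56), Pdk2 (-0.55), Ppp1r3g (-0.51) and Pfkm (-0.49) were the others.

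Among 26 secreted and surface factors that organize synapses, 2 rose and 2 fell (median -0.03), where 1.71% and 3.61% of all genes did. Il33, an alarmin cytokine of astrocytes, stood at 23.7 and 21.7 CPM in GR-Con and at 67.8 and 37.5 CPM in GR-KO (1.14 ± 0.26, edgeR adjusted p = 0.00044). Mertk, a phagocytic receptor, stood at 1928 and 1694 CPM in GR-Con and at 1013 and 1191 CPM in GR-KO (-0.78 ± 0.17, edgeR adjusted p = 0.000337). Sparc, a matricellular antagonist of synapse formation, stood at 47.8 and 17.9 CPM and at 14.8 and 4.92 CPM (-1.81 ± 0.51, edgeR adjusted p = 0.0108), so that the lower control came close to the higher GR-KO library. Bdnf, better known as a neuronal gene and at 16.2 CPM in excitatory neurons, stood at 6.57 and 5.97 CPM against 11.4 and 10.1 CPM (0.70 ± 0.23). Of 15 reactive astrocyte genes, Gfap (0.56 ± 0.17, edgeR adjusted p = 0.0179) and Cd44 rose. Gfap stood at 60.0 and 47.4 CPM in GR-Con and at 90.8 and 74.7 CPM in GR-KO. In the list of 23 upper layer, deep layer and fibrous astrocyte genes, 6 rose and 0 fell (median 0.27), and these were Scel, Il33, Gfap, Cd44, Aqp4 and Fabp7, and all but Scel are counted in other lists as well. Potassium, sodium and chloride genes included 4 that fell of 15 (Lrrc8a, -1.07, Ttyh1, -0.61, Atp1b2, -0.50, and Kcnk1, -0.44) and 1 that rose (Kcnk2, 0.43).

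The other lists held few calls, to be read against 1.71% higher and 3.61% lower among all genes. Of 29 lipid and cholesterol genes, 3 rose and 1 fell. Those that rose included the sterol synthesis genes Hmgcs1 (1.07 ± 0.21, edgeR adjusted p = 2.43e-05) and Dhcr7 (0.65), and Acsl3, which activates fatty acids, fell by 0.84. Of 33 lineage transcription factors, Hes5 rose and Zbtb16 and Hey2 fell (median 0.00). Sox9, which specifies the lineage, lay between 64.5 and 81.7 CPM in the 4 libraries and did not pass (95% interval -0.19 to 0.39). Of 14 endfoot genes, Aqp4 and its syntrophin partner Sntb1 (0.79) rose, and the adhesion gene Hepacam (-0.55) and the laminin gene Lama2 (-0.50) fell. Of 16 glutamate and GABA genes, Slc38a1 and Gad1 rose, and Gad1 is an inhibitory neuron gene at 286 CPM in those cells against 5.75 to 11.4 CPM here. Slc1a2, the main glutamate transporter, stood at 10547 and 10077 CPM against 8124 and 8410 CPM and did not pass (-0.38 ± 0.16, edgeR adjusted p = 0.168). Of 14 thyroid hormone genes, Slco1c1 rose and Rxra, Thrsp and Klf9 fell, and of 25 metal and antioxidant genes, Slc30a10 and Trf rose and Mt1, Mt2, Gstm1 and Txnip fell. Growth factor signalling (28 genes, 2 up and 2 down), receptors and calcium signalling (22 genes, 2 up and 1 down), retinoic acid (11 genes, 2 down), corticosteroid receptors (11 genes, Fkbp5 down), hypoxia (16 genes, Hif3a down), gap junctions (5 genes, Gjb6 down) and immediate early genes (13 genes, Jun up) complete the 24 lists. Lists share members, so that a gene can count more than once.

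**Figure D2:**
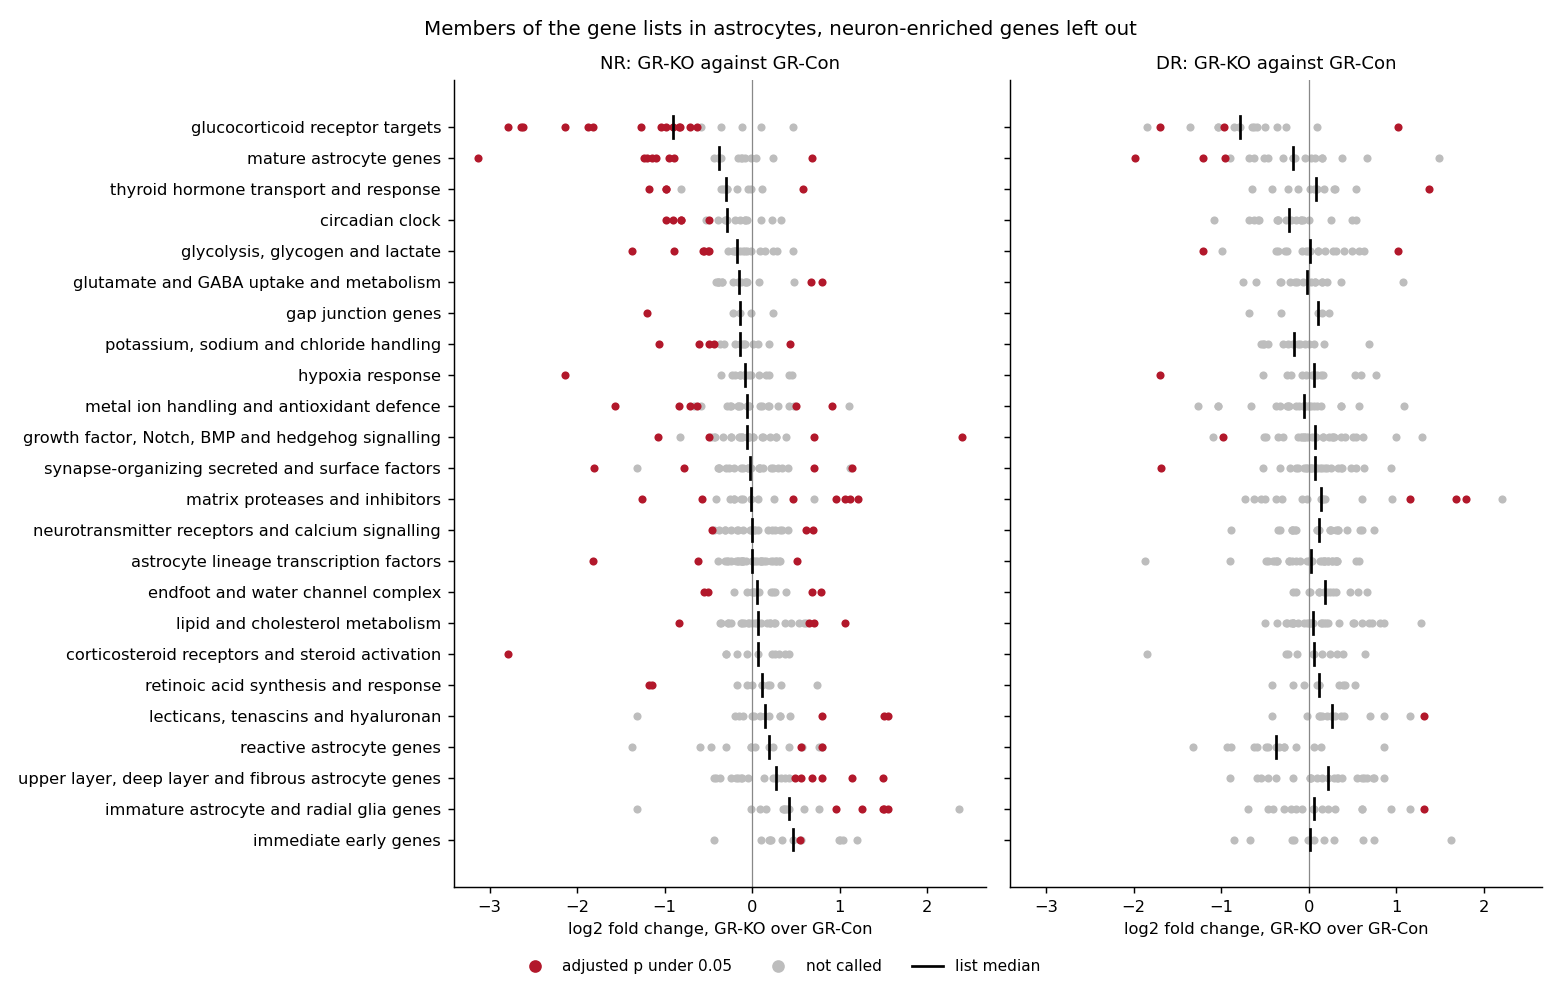
Log2 fold change of GR-KO against GR-Con for the members of each gene list in NR (left) and DR (right). Each point is a gene, red points passed the test and the black bar is the list's median, which was -0.91 for the glucocorticoid targets and 0.43 for the immature astrocyte genes in NR and -0.78 and 0.06 in DR.

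The difference was also described by how many nuclei had a UMI of a gene. These shares rest on the same UMIs and libraries and are no separate evidence. For this, each nucleus was thinned to 2000 UMIs, and 56 of 9486 nuclei with fewer were left out (0 to 16 per library). Etnppl was found in 38.1% of male and 27.0% of female NR GR-Con nuclei and in 4.00 and 4.29% of NR GR-KO nuclei. Without thinning, the shares were 66.9 and 48.2% against 10.4 and 11.3%, at median depths of 6267 and 5586.5 against 8662 and 12123.5 UMIs. In oligodendrocytes, which should lack the gene, the thinned share was 0.0741% (median depths 7040 to 15571 UMIs per library), so that the remaining shares in GR-KO lay above this background. Hif3a was found in 46.8 and 39.2% of control nuclei and in 11.5% of the nuclei of both GR-KO libraries. Oligodendrocytes had a UMI of it in 3.15% of nuclei over all libraries, but in 0.246 to 11.99% by library, so that the GR-KO share was not above the highest of these. For both genes, fewer nuclei had a UMI in GR-KO, while whether the level per nucleus differed as well was not tested.

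Shares of the higher genes moved the other way. Tnc was found in 11.4 and 14.4% of NR GR-Con and in 27.0 and 27.1% of NR GR-KO nuclei, and without thinning in 23.7 and 23.2% against 51.0 and 49.4%. Oligodendrocytes had a share of 0.130%. Them4 was found in 4.83 and 6.13% against 19.8 and 16.7% (oligodendrocytes 2.44%), so that the control values lay only a little above this background. Alk was found in 2.60 and 1.99% against 11.5 and 7.16%, but 7.85% of oligodendrocytes had a UMI as well. Vcan was found in 4.57 and 4.47% against 11.5 and 13.6%, and 17.3% of oligodendrocytes had one, so that neither cell type can serve as a background for it.

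**Figure D3:**
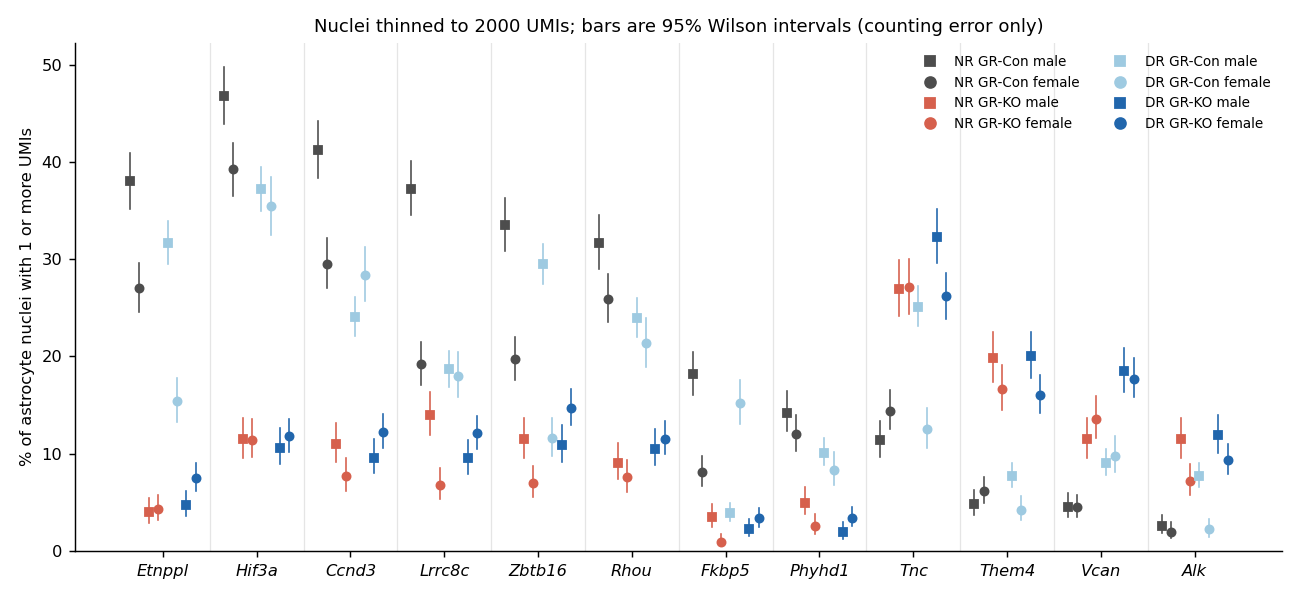
Percent of astrocyte nuclei with at least 1 UMI of a gene in each of the 8 libraries, after thinning every nucleus to 2000 UMIs. Points are libraries and bars are 95% Wilson intervals, which cover counting error only. Etnppl was found in 27.0 to 38.1% of NR GR-Con nuclei and 4.00 to 4.29% of NR GR-KO nuclei, and Tnc in 11.4 to 14.4% and 27.0 to 27.1%.

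In the dark-reared mice, 28 (0.215%) of 13017 genes were higher in GR-KO, Cre among them, and 68 (0.522%) were lower. The median log2 fold change was -0.01. The 2 DR GR-Con libraries differed widely, and with edgeR's quasi-likelihood test 0 genes passed (793 at an unadjusted p under 0.05), while DESeq2 called 56. The lower genes repeated names from NR. Hif3a stood at 239 and 229 CPM in DR GR-Con and at 70.5 and 71.5 CPM in DR GR-KO (-1.70 ± 0.19, edgeR adjusted p = 4.16e-15). Phyhd1 stood at 53.8 and 45.0 CPM and at 13.4 and 14.3 CPM (-1.81 ± 0.25, edgeR adjusted p = 1.8e-09). In both genes the groups did not overlap, which their choice required, and the fold changes were smaller in size than in NR (-2.14 each). Etnppl stood at 248 and 108 CPM in GR-Con and at 31.7 and 57.3 CPM in GR-KO (-1.98 ± 0.46, edgeR adjusted p = 0.00699), where the female control was far below the male one and nearer to the GR-KO libraries. Ccnd3 (-1.37 ± 0.21, edgeR adjusted p = 2.85e-07) and Rhou (-1.12 ± 0.21, edgeR adjusted p = 0.000113) fell as well. Sgcd, a sarcoglycan gene, stood at 123 and 224 CPM and at 56.6 and 55.4 CPM (-1.60 ± 0.30), and Ptprj, a receptor phosphatase, at 126 and 230 CPM and at 59.5 and 68.3 CPM (-1.45 ± 0.30). In these 2 genes it was the male control that came closer to the GR-KO libraries.

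Among the genes that rose in DR, Slco1c1 stood at 500 and 561 CPM in GR-Con and at 1269 and 1429 CPM in GR-KO (1.37 ± 0.20, edgeR adjusted p = 4.44e-08). Vcan stood at 48.4 and 51.2 CPM and at 126 and 118 CPM (1.32 ± 0.19, edgeR adjusted p = 2.68e-08). Adamts5 stood at 13.7 and 13.1 CPM and at 48.5 and 43.6 CPM (1.80 ± 0.23, edgeR adjusted p = 6.65e-11). In these 3 genes the control libraries nearly coincided, and the GR-KO libraries lay well above them. Them4 (37.4 and 26.1 against 129 and 105 CPM, 1.90 ± 0.26), the kinase gene Map3k19 (30.2 and 13.5 against 59.5 and 76.1 CPM, 1.65 ± 0.39) and Cit, which encodes citron kinase (43.3 and 24.0 against 69.7 and 83.2 CPM, 1.20 ± 0.32), rose as well. Without the DR GR-Con male library, 2259 genes passed, in a fit that assumes the lone control to vary like the other group. The log2 fold changes were then -1.20 for Etnppl, -1.63 for Hif3a, -1.64 for Phyhd1, -1.95 for Sgcd, -1.79 for Ptprj, 2.21 for Them4, 1.32 for Slco1c1, 1.30 for Vcan, 2.39 for Map3k19 and 1.73 for Cit, and all 10 still passed. The number was 676 without the DR GR-Con female library. Leaving out a GR-KO library had the opposite result, with 7 genes without the male and 6 without the female. Vcan, Map3k19, Cit, Sgcd and Ptprj did not pass in either of these, Etnppl and Phyhd1 not without the male and Slco1c1 not without the female, while Hif3a and Them4 passed in both. Etnppl did not pass with DESeq2 either, nor Map3k19 (1.31) and Cit (1.00) in nuclei with 0 excitatory marker UMIs.

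The list counts in DR are to be read against 0.215% higher and 0.522% lower among all genes. Of the glucocorticoid target list, 17 genes were tested in DR. Hif3a and Cables1 fell and Pdk4 rose, with a median of -0.78. Fkbp5 stood at 21.5 and 72.8 CPM in DR GR-Con and at 9.89 and 15.4 CPM in DR GR-KO and did not pass (-1.85 ± 0.55, edgeR adjusted p = 0.0999). Its order of the sexes in the controls was opposite to that in NR. Tsc22d3 stood at 75.3 and 23.6 CPM and at 29.7 and 35.5 CPM (-0.59 ± 0.51), so that the female control was below both GR-KO libraries. Zbtb16 overlapped too, with 179 and 64.8 against 75.1 and 112 CPM (-0.36 ± 0.48). Pdk4, the member with the opposite sign in NR, stood at 19.8 and 14.7 CPM and at 34.0 and 35.5 CPM (1.03 ± 0.26, edgeR adjusted p = 0.0168). Of the mature astrocyte genes, Etnppl, Aldoc (-1.20) and Cyp4f15 (-0.95) fell of 20 tested and 0 rose (median -0.17). Of the immature genes only Vcan rose of 17 (median 0.06), and Tnc, at 192 and 77.3 against 328 and 271 CPM, did not pass (1.16 ± 0.42, edgeR adjusted p = 0.292). Of 18 matrix enzymes, Adamts5, Adamts16 (1.69) and Adamts12 (1.16) rose and 0 fell (median 0.15). Sparc (-1.68 ± 0.32, edgeR adjusted p = 0.000123) and the Wnt receptor gene Fzd2 (-0.98 ± 0.24) were the other list members that fell. Without the DR GR-Con male library, the log2 fold changes were 1.29 for Pdk4, 1.86 for Adamts5, 2.22 for Adamts16 and 1.01 for Adamts12. They were -1.88 for Sparc, -1.06 for Fzd2, -1.53 for Aldoc, -1.08 for Cyp4f15 and -0.64 for Cables1. In the same fit, which leaves a lone control, Ccnd3 was at -1.47, Rhou at -0.95, Fkbp5 at -2.44 and Tnc at 2.00. Few genes passed where a GR-KO library was left out instead, as given above. The lists named for the clock, endfeet, ion handling, lipids, metals, gap junctions and reactive genes held 0 calls.

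Whether the genotype difference itself depended on rearing was tested with an interaction term over the 8 libraries. In 4 (0.0296%) of 13534 genes the genotype difference was more positive in NR and in 1 (0.00739%) more negative. With the quasi-likelihood test 0 of these genes passed, and 431 had an unadjusted p under 0.05. Of 1220 neuron-enriched genes, 52 passed, all more positive in NR, where the GR-KO libraries held more neuronal UMIs. The 1 gene that was more negative was Smim3, a small membrane protein gene. It stood at 108 and 87.5 CPM in NR GR-Con, at 40.9 and 47.2 CPM in NR GR-KO, at 52.2 and 52.1 CPM in DR GR-Con and at 40.3 and 46.8 CPM in DR GR-KO (difference -0.98 ± 0.26, edgeR adjusted p = 0.041). Its NR GR-Con libraries were high and the other 6 lay together. Erbb4, a neuregulin receptor abundant in inhibitory neurons (9781 CPM) and in oligodendrocytes of NR (4569 to 5067 CPM), had a genotype difference of 1.37 in NR and -0.03 in DR. None of the 19 glucocorticoid target genes passed this test (median difference -0.34, over all genes -0.02), so that their smaller number of calls in DR is not shown to be a smaller difference. Without the DR GR-Con male library the terms were 1.17 for Erbb4 and -1.01 for Smim3, both still called, among 723 calls. Smim3 lost its call in 11 of 15 alternative fits, among them the 6 that left out a library of another group than DR GR-Con. Erbb4 lost it in 5, with a term of 0.22 in nuclei with 0 excitatory marker UMIs.

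Rearing was compared within each genotype. In GR-Con, 8 (0.061%) of 13123 genes were higher and 7 (0.0533%) lower in DR than in NR (median -0.01), and the quasi-likelihood test called 0 (467 at an unadjusted p under 0.05). The NR GR-Con and DR GR-Con libraries are the same as those of the genotype comparisons. Aldh1a1 stood at 500 and 475 CPM in NR and at 220 and 109 CPM in DR (-1.57 ± 0.35, edgeR adjusted p = 0.0123). Thrsp, a lipogenic gene responsive to thyroid hormone, stood at 63.5 and 76.6 CPM in NR and at 31.9 and 29.9 CPM in DR (-1.19 ± 0.23, edgeR adjusted p = 0.000543). Both genes were higher in each NR control than in each DR control, which their choice required. Vcan was higher in DR, at 25.6 and 26.7 against 48.4 and 51.2 CPM (0.91 ± 0.22, edgeR adjusted p = 0.0208), and so was Erbb4 (42.2 and 38.4 against 98.1 and 75.8 CPM, 1.10 ± 0.24). Smim3 was lower (-0.92 ± 0.21, edgeR adjusted p = 0.0189). Vcan and Smim3 did not pass with DESeq2, nor did Erbb4 and Smim3 in nuclei with 0 excitatory marker UMIs. Erbb4 is abundant in inhibitory neurons and oligodendrocytes, as given above. Without the DR GR-Con male library 1137 genes passed, and the values were -2.20 for Aldh1a1, -1.27 for Thrsp, 0.93 for Vcan, 0.87 for Erbb4 and -0.94 for Smim3, all still called. None of the 5 passed without the NR GR-Con male library or without the NR GR-Con female library, where 4 and 1 genes were called.

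In GR-KO, 91 (0.685%) of 13277 genes were higher and 147 (1.11%) lower in DR (median 0.01), and of 1213 neuron-enriched genes 175 passed, 173 of them lower in DR. The NR GR-KO libraries held more neuronal RNA and were deeper, and the part of this in the remaining genes was not tested. Among well expressed genes with groups apart, Slco1b2 had the largest fall, from 59.6 and 83.1 CPM in NR to 15.0 and 6.26 CPM in DR (-2.71 ± 0.28, edgeR adjusted p = 8.57e-18). Acss2, which makes acetyl-CoA from acetate, stood at 185 and 317 CPM and at 109 and 104 CPM (-1.17 ± 0.22, edgeR adjusted p = 3.34e-05). Igfbp2, a binding protein of insulin-like growth factors, stood at 41.3 and 60.4 CPM and at 21.6 and 22.7 CPM (-1.13 ± 0.20, edgeR adjusted p = 7.96e-06). All 3 separated the rearing groups, which their choice required. The sterol cyclase gene Lss (-1.10 ± 0.18) and Inka2, a kinase inhibitor gene (-1.03 ± 0.16), fell as well. Zbtb16 rose from 61.4 and 37.6 CPM to 75.1 and 112 CPM (1.01 ± 0.24, edgeR adjusted p = 0.00242), Adamts9 from 106 and 111 CPM to 200 and 186 CPM (0.90 ± 0.12, edgeR adjusted p = 5.41e-10) and Nnat from 60.6 and 36.3 CPM to 93.5 and 76.1 CPM (0.89 ± 0.21, edgeR adjusted p = 0.00186). The transcription factor gene Tox2 (0.86 ± 0.14) and Zswim6 (0.85 ± 0.17) were the others named by size. Zbtb16, Nnat and Acss2 did not pass with DESeq2, nor did Zbtb16 and Zswim6 without the DR GR-KO female library and Nnat without the male one. In nuclei with 0 excitatory marker UMIs, Tox2 (0.72), Igfbp2 (-1.12) and Zbtb16 (0.81) did not pass, and in the fit over 8 libraries Zbtb16, Adamts9, Nnat, Acss2, Lss and Inka2 did not. Slco1b2 passed in all 12 alternative fits. Zbtb16 was at 0.66 without the DR GR-KO female library, and Nnat (0.56) and Acss2 (-0.72), still called, were smaller without the NR GR-KO female library.

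Several lists had calls in GR-KO rearing, against 0.685% higher and 1.11% lower among all genes. The number of calls in this comparison changed widely between fits, as given at the end. List members not named above were not followed through those fits. Of 16 glucocorticoid target genes, Zbtb16 rose and Mt1 and Mt2 fell (median -0.03). Mt1 stood at 78.2 and 79.8 CPM in NR and at 41.9 and 49.7 CPM in DR (-0.70 ± 0.14, edgeR adjusted p = 0.000169). Of 18 clock genes, Dbp (-0.80 ± 0.18) and Ciart (-1.09 ± 0.21) fell (median -0.01), and of 18 immature genes Tnc (0.51) and Vcan (0.69) rose and Igfbp2 and Slco1b2 fell (median -0.05). Of 20 mature genes Agt rose and Aldh1a1 (-0.60) and Aldoc (-0.43) fell. Of 25 metal and antioxidant genes, the manganese exporter gene Slc30a10 (0.48) and the cystine transporter gene Slc7a11 (0.74) rose, and Mt1, Mt2 and Gpx4 fell.

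Over both genotypes, with genotype as a term, 30 (0.222%) of 13534 genes were higher and 92 (0.68%) lower in DR (median 0.00), and 3 passed the quasi-likelihood test (Vcan, Sntb1 and 1110008P14Rik). Slco1b2 stood at 22.7 to 83.1 CPM in the 4 NR libraries and at 6.26 to 15.0 CPM in the 4 DR libraries (-2.24 ± 0.32, edgeR adjusted p = 2.41e-07). Igfbp2 stood at 31.5 to 60.4 CPM and at 15.4 to 23.4 CPM (-1.03 ± 0.19, edgeR adjusted p = 6.51e-05), and Acss2 at 146 to 317 CPM and 84.3 to 120 CPM (-1.09 ± 0.23, edgeR adjusted p = 0.00114). No DR library reached an NR library in these genes, which their choice required. Vcan stood at 25.6 to 88.9 CPM in NR and at 48.4 to 126 CPM in DR, with each DR group above the NR group of its genotype (0.79 ± 0.13, edgeR adjusted p = 1.42e-06). Sntb1, the syntrophin gene, rose by 0.66 (edgeR adjusted p = 4.31e-06). Pdzph1, a PDZ domain gene, stood at 96.9 to 120 CPM and at 138 to 163 CPM (0.50 ± 0.11, edgeR adjusted p = 0.00274), and Zfp704 (0.50 ± 0.12) and Anks1 (0.36 ± 0.10) also rose. Thrsp (-0.77 ± 0.19) and Nrgn (-0.74 ± 0.14) fell, and Nrgn, neurogranin, is an excitatory neuron gene at 202 CPM there. Of 18 clock genes Dbp (-0.66) and Ciart (-0.95) fell, and of 14 thyroid hormone genes Slc7a5 (-0.76), Thrsp and Ttr fell. Without the DR GR-Con male library, 202 genes passed. Vcan was then at 0.78, Sntb1 at 0.67, Pdzph1 at 0.57, Zfp704 at 0.46, Slco1b2 at -2.20, Acss2 at -1.22, Igfbp2 at -0.94 and Nrgn at -0.69, all still called, while Anks1 (0.33), Thrsp (-0.69) and Ttr (-3.62) no longer passed. Pdzph1 did not pass without the male library of NR GR-Con, NR GR-KO or DR GR-KO, nor Zfp704 without either NR GR-Con library. Zfp704 (0.43) and Igfbp2 (-0.94) did not pass in nuclei with 0 excitatory marker UMIs, and Anks1 lost its call in 11 of 15 alternative fits and Thrsp in 6. Oligodendrocyte marker UMIs also differed with rearing in these nuclei, at 0.0193 ± 0.00436% of astrocyte UMIs in NR and 0.0132 ± 0.00179% in DR (SD, n = 4 each, exact permutation p = 0.0286, the smallest possible), and the part of this was not tested.

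The NR genotype difference was set against the same difference in oligodendrocytes and their precursors (OPCs), which the astrocyte promoter should not target, in a single fit over both cell types of the 4 NR libraries. Against oligodendrocytes, the difference was more positive in astrocytes for 150 (1.07%) of 13968 genes and more negative for 185 (1.32%). Against OPCs, these numbers were 128 (0.97%) and 125 (0.947%) of 13198 genes. Medians of the differences were 0.01 in both. The 2 cell types of a library share its preparation, and the same astrocyte sums enter both comparisons. Of 19 glucocorticoid target genes, the difference was more negative in astrocytes for 6 against oligodendrocytes (median -0.90), and of 18 for 4 against OPCs (median -0.86). Fkbp5 stood at 154 and 65.0 CPM in oligodendrocytes of NR GR-Con and at 125 and 47.4 CPM in those of NR GR-KO, and the male library was the high one in both genotypes. The difference from astrocytes was -2.45 ± 0.21 (edgeR adjusted p = 1.09e-27) and, against OPCs, -2.63 ± 0.27 (edgeR adjusted p = 7.05e-19). Zbtb16 showed the same order in oligodendrocytes (243 and 78.0 against 159 and 53.0 CPM), with a difference of -1.11 ± 0.27 (edgeR adjusted p = 0.00449, by the quasi-likelihood test 0.0616). For Klf9 the differences were -0.62 ± 0.18 and -0.68 ± 0.20, for Per1 -0.34 and -0.50 and for Hif3a -1.18 and -1.12, and the latter 2 genes did not pass.

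Galnt18, which starts O-linked glycans, differed in sign between the cell types. It stood at 273 and 192 CPM in astrocytes of NR GR-Con and at 130 and 88.0 CPM in those of NR GR-KO. In oligodendrocytes it stood at 6.47 and 3.93 CPM in GR-Con and at 16.5 and 18.3 CPM in GR-KO, and in OPCs at 7.52 and 6.88 CPM and at 20.0 and 16.5 CPM. The difference was -2.85 ± 0.27 against oligodendrocytes (edgeR adjusted p = 5.25e-24) and -2.45 ± 0.32 against OPCs (edgeR adjusted p = 1.8e-12). The gene stood at 368 CPM in excitatory neurons, and the level in both other cell types was low. Npas2 was alike against oligodendrocytes, where it stood at 3.31 and 3.93 CPM in GR-Con and 7.48 and 10.7 CPM in GR-KO (difference -2.27 ± 0.31, edgeR adjusted p = 7.54e-12). Arhgef28, a guanine nucleotide exchange factor, stood at 33.6 and 43.2 against 9.48 and 7.25 CPM in astrocytes and at 441 to 514 CPM in all oligodendrocyte sums (difference -2.21 ± 0.20, edgeR adjusted p = 2.44e-25). Spsb1, a ubiquitin ligase adaptor, differed likewise (-2.11 ± 0.24), and its oligodendrocyte values lay between 89.0 and 112 CPM.

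Higher genes were compared in the same way. Alk stood at 52.2 to 70.3 CPM in all oligodendrocyte sums and at 209 to 251 CPM in OPCs, with differences of 2.23 ± 0.22 (edgeR adjusted p = 2.13e-20) and 2.56 ± 0.20 (edgeR adjusted p = 1.44e-36). Vcan stood at 94.9 to 191 CPM in oligodendrocytes and at 1062 to 1381 CPM in OPCs, far above astrocytes, and did not separate the genotypes in either (difference against oligodendrocytes 1.93 ± 0.22, edgeR adjusted p = 6.11e-15). Them4 (1.84 and 1.97) and Nnat (1.71 and 1.56) were more positive in astrocytes against both. Hmgcs1 rose in astrocytes and stood at 157 to 198 CPM in oligodendrocytes, with a difference of 1.32 ± 0.18 (edgeR adjusted p = 5.77e-11). Of 29 lipid and cholesterol genes, the difference was more positive in astrocytes against oligodendrocytes for 7 and more negative for 0, beside 1.07% and 1.32% of all genes (median 0.05). Fewer of the lipid genes were called higher in astrocytes themselves, as given above, so that a positive difference need not be a rise there. Prr5l, at 1019 to 1215 CPM in oligodendrocytes and 0.597 to 5.45 CPM in astrocytes, and Mboat1, at 69.4 to 85.8 and 0.149 to 1.90 CPM, had positive differences (2.59 and 2.40) in genes that oligodendrocytes express, and NR GR-KO astrocytes held more oligodendrocyte marker UMIs. Tnfaip8 (2.03 against oligodendrocytes), Cobll1 (1.67 against OPCs), Rmst (-3.08), Smim3 (-3.22) and Ccnd3 (-2.60, each against OPCs) were the other named genes. Without 1 of the 4 libraries, in at least 1 such fit, Mboat1 and Tnfaip8 no longer passed against oligodendrocytes, nor Smim3, Rmst and Ccnd3 against OPCs. Mboat1 was at 1.34 without the NR GR-KO female library and Rmst at -1.05 without the male one, and Smim3 ran from -1.74 to -8.21 without the NR GR-Con male or female library.

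**Figure D4:**
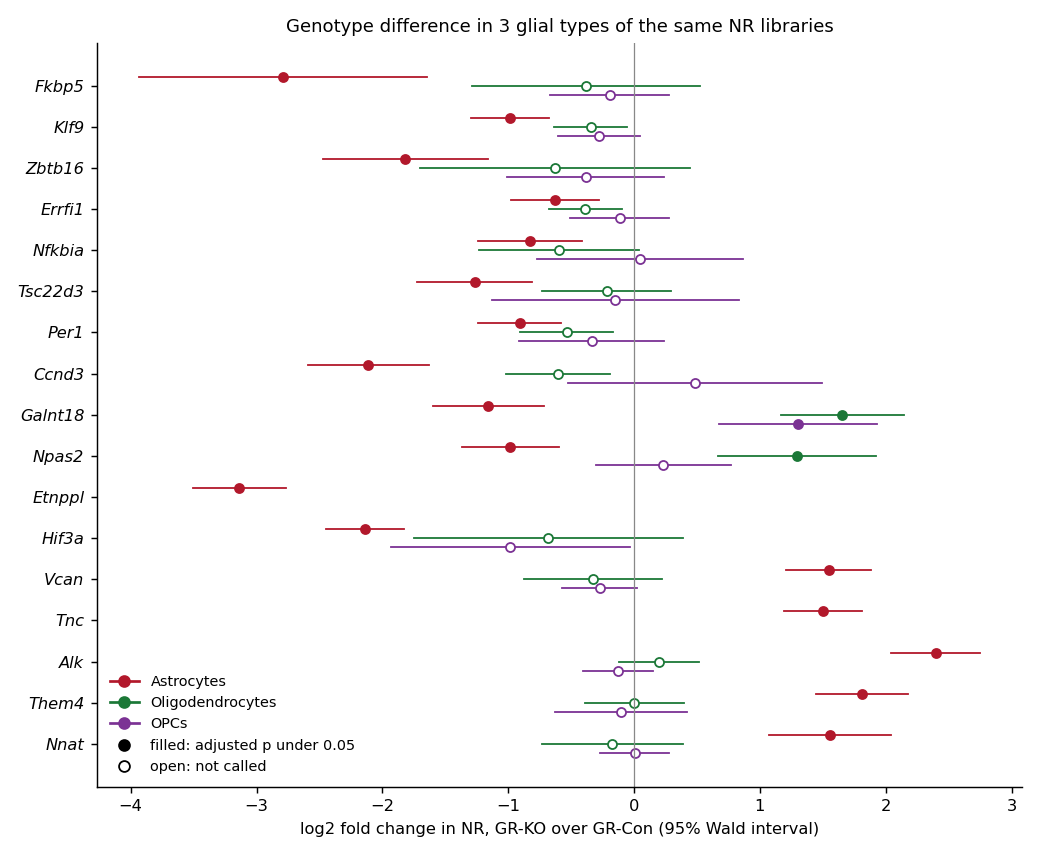
Log2 fold change of NR GR-KO against NR GR-Con with its 95% interval in astrocytes, oligodendrocytes and OPCs for 17 genes, with filled points for those that passed the test. Fkbp5 was at -2.79 in astrocytes and at -0.38 and -0.19 in oligodendrocytes and OPCs, where it did not pass, and Galnt18 was at -1.16, 1.65 and 1.30.

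Nuclei with at least 1 UMI of EGFP, Cre or ΔCre were compared with the other astrocyte nuclei of the same library. This comparison was chosen after seeing the data. There were 65 to 154 nuclei with a vector UMI per library, or 5.33 to 16.7%, and nuclei without one may carry the virus undetected. Median depths were alike (6182 and 6270 UMIs with and without in NR GR-Con male, 12482 and 12048 in NR GR-KO female). In GR-KO, 212 (1.86%) of 11380 genes were higher and 258 (2.27%) lower in nuclei with a vector UMI, over 4 libraries with the library as a block. In GR-Con, 64 (0.547%) of 11702 were higher and 66 (0.564%) lower. The 2 genotypes were not alike in depth. Nuclei with a vector UMI numbered 115 to 154 per library in GR-KO and 65 to 137 in GR-Con. Their median UMIs were 8608.5 and 12482 in NR GR-KO, 4859 and 5165 in DR GR-KO and 5524 to 7229 in GR-Con. The part of this in the numbers of calls, here and in the lists below, was not tested. The effect of a vector UMI was more positive in GR-KO than in GR-Con for 5 (0.042%) of 11913 genes and more negative for 29 (0.243%). The 3 vector genes that chose the nuclei were left out.

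Etnppl separated the nuclei in GR-KO and not in GR-Con. In GR-KO it stood at 4.24, 4.13, 3.95 and 12.3 CPM with a vector UMI and at 33.6, 32.9, 36.1 and 61.8 CPM without one, in NR male, NR female, DR male and DR female. Every library moved down, which the choice of the gene required (-2.83 ± 0.31, edgeR adjusted p = 5.98e-32). In GR-Con it stood at 309, 274, 253 and 78.1 CPM with and at 283, 199, 248 and 113 CPM without a vector UMI (0.04 ± 0.09, 3 libraries up and 1 down). The difference between the genotypes was -2.87 ± 0.33 (edgeR adjusted p = 2.15e-24). Hif3a in GR-KO stood at 35.4, 49.6, 39.5 and 46.0 CPM with and at 83.2, 71.7, 75.5 and 74.1 CPM without (-0.86 ± 0.13, edgeR adjusted p = 8.91e-10), and its effect in GR-Con was 0.05 ± 0.07. Fkbp5 in GR-KO stood at 6.36, 3.44, 0 and 6.13 CPM with and at 25.1, 5.13, 11.5 and 16.4 CPM without (-1.79 ± 0.36, edgeR adjusted p = 7.94e-07). In GR-Con it was at 0.40 ± 0.13 and did not pass, and the difference was -2.16 ± 0.39 (edgeR adjusted p = 6.41e-07). For these 3 genes each GR-KO library was lower with a vector UMI, which the naming rule required of Etnppl and Hif3a.

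In the lists, against 2.27% lower in GR-KO and 0.564% in GR-Con among all genes, 5 of 16 glucocorticoid target genes were lower with a vector UMI in GR-KO and 0 higher (Fkbp5, Zbtb16, Mt1, Hif3a and Sult1a1, median -0.29), while in GR-Con 0 of 16 passed in either direction (median 0.04). The difference passed for Fkbp5, Zbtb16 and Hif3a. Of 18 mature astrocyte genes, 9 were lower in GR-KO and 0 higher (median -0.23), and of 19 in GR-Con 0 passed (median -0.07), with the difference called for Etnppl and Aldh1a1. Aldh1a1 was at -0.55 ± 0.08 in GR-KO and at 0.05 ± 0.07 in GR-Con. The share of UMIs from the 9 astrocyte markers was also lower with a vector UMI in all 8 libraries (1.10 to 1.52% with and 1.29 to 1.57% without), the 4 GR-Con libraries among them, and the part of this was not tested. Cdh19, a cadherin gene, was at -0.96 ± 0.12 and 0.21 ± 0.08 (difference -1.17 ± 0.14, edgeR adjusted p = 5.74e-14). Phyhd1, Lrrc8c and Smim3 also had negative differences. Only 3 genes met the naming rule for a more positive difference (Igfbp5, Nnat and Rgma). Of the 8 genes named by size as higher in NR GR-KO, only Nnat was among them. Alk, Them4, 8030451A03Rik, Fras1, Vcan, Tnc and Fabp7 were not, which does not show that they had no difference. Igfbp5, an insulin-like growth factor binding protein, was lower with a vector UMI in GR-Con (-1.17 ± 0.22, edgeR adjusted p = 2.66e-06) and near 0 in GR-KO (0.07 ± 0.12). Nr3c1 (0.18 ± 0.07, edgeR adjusted p = 0.12) and Aqp4 (0.09 ± 0.08) did not pass in GR-KO. Without the DR GR-Con male library the differences of Phyhd1 (-1.01) and Nnat (0.82) no longer passed, and in all Phyhd1 lost its call in 5 of 10 alternative fits and Nnat in 3. The differences of Etnppl (-2.88), Cdh19 (-1.18), Igfbp5 (1.11), Hif3a (-0.94), Smim3 (-0.97), Lrrc8c (-0.87) and Zbtb16 (-0.75) still passed without it.

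Other genes went with a vector UMI in both genotypes. Gm42047, a predicted gene, stood at 280, 358, 427 and 366 CPM with and at 67.3, 72.2, 112 and 168 CPM without a vector UMI in GR-Con (1.80 ± 0.10, edgeR adjusted p = 6.58e-66), in the library order given above. In GR-KO it stood at 479, 341, 422 and 648 CPM and at 81.9, 89.1, 151 and 193 CPM (1.92 ± 0.10, edgeR adjusted p = 9.04e-72). All 8 libraries were higher with a vector UMI. Naming in both genotypes required that all 8 move alike, here and for Scel below. The difference between genotypes did not pass for Gm42047 (0.10 ± 0.16). Gas6, a ligand of the phagocytic receptors Mertk and Axl, was higher in GR-KO (1.46 ± 0.10) and GR-Con (1.10 ± 0.09). The long noncoding RNA Pvt1 (1.27 and 1.20), the kinase gene Map3k20 (1.15 and 1.25), the exocyst gene Exoc4 (1.00 and 0.83) and Trp53inp1 (1.26 and 0.82) did likewise, as did Ephx1, Inka2 and Dglucy, while Lhfpl2 passed in GR-KO (0.89). Scel, which encodes sciellin and is on the layer list, was lower with a vector UMI in GR-KO (-3.50 ± 0.29, edgeR adjusted p = 3e-69) and in GR-Con (-1.68 ± 0.25, edgeR adjusted p = 1.29e-11), in all 8 libraries, and the difference was -1.81 ± 0.38 (edgeR adjusted p = 0.00134). Between the NR genotypes Scel was among the genes higher in GR-KO, the opposite direction, and the reason was not tested. Igsf21 (-0.94), Plpp4 (-0.91) and Smc4 (-0.90) were lower in GR-KO, and Sncaip (-0.92), Efcab2 (-0.83), Masp1 (-0.79), A330093E20Rik (-0.77), Abca5 (-0.73) and Cnr1 (-0.72) in GR-Con, of which Sncaip, Masp1 and Cnr1 no longer passed without the DR GR-Con male library. The other genes named by size in GR-Con still passed without it, Gm42047 at 1.76, Map3k20 at 1.25, Pvt1 at 1.16, Gas6 at 1.15 and Scel at -1.53 among them. Efcab2 and Masp1 did not pass without the NR GR-Con male library, nor Cnr1 without the NR GR-Con female library. Abca5, Inka2 and Cnr1 did not pass without the DR GR-Con female library. Layers were not recorded for these nuclei.

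Among the higher genes were several known targets of the tumour suppressor p53, which were picked after their values were seen and are given as a description. No fixed list of such targets was counted, and 1.86% of all genes in GR-KO and 0.547% in GR-Con were higher. Cdkn1a, the cyclin-dependent kinase inhibitor p21, stood at 25.9, 24.7, 21.5 and 29.9 CPM with and at 5.42, 2.39, 4.34 and 11.8 CPM without a vector UMI in GR-Con (2.06 ± 0.26, edgeR adjusted p = 1.09e-10). In GR-KO it stood at 17.0, 13.1, 15.8 and 24.5 CPM and at 1.99, 2.17, 3.61 and 4.29 CPM (2.57 ± 0.25, edgeR adjusted p = 7.97e-20). Every library was higher with a vector UMI. Eda2r, a death receptor of the same target set, was at 2.77 ± 0.28 in GR-Con and 2.52 ± 0.21 in GR-KO. Phlda3 (1.89 and 2.04), Psrc1 (2.59 and 2.22), Aen (1.22 and 1.10), Ccng1 (1.00 and 1.14) and the DNA repair gene Mgmt (1.12 and 1.65) were higher in both as well. None of the differences between genotypes passed for these 7 genes, and that of Cdkn1a was 0.51 with a 95% interval of -0.25 to 1.27.

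**Figure D5:**
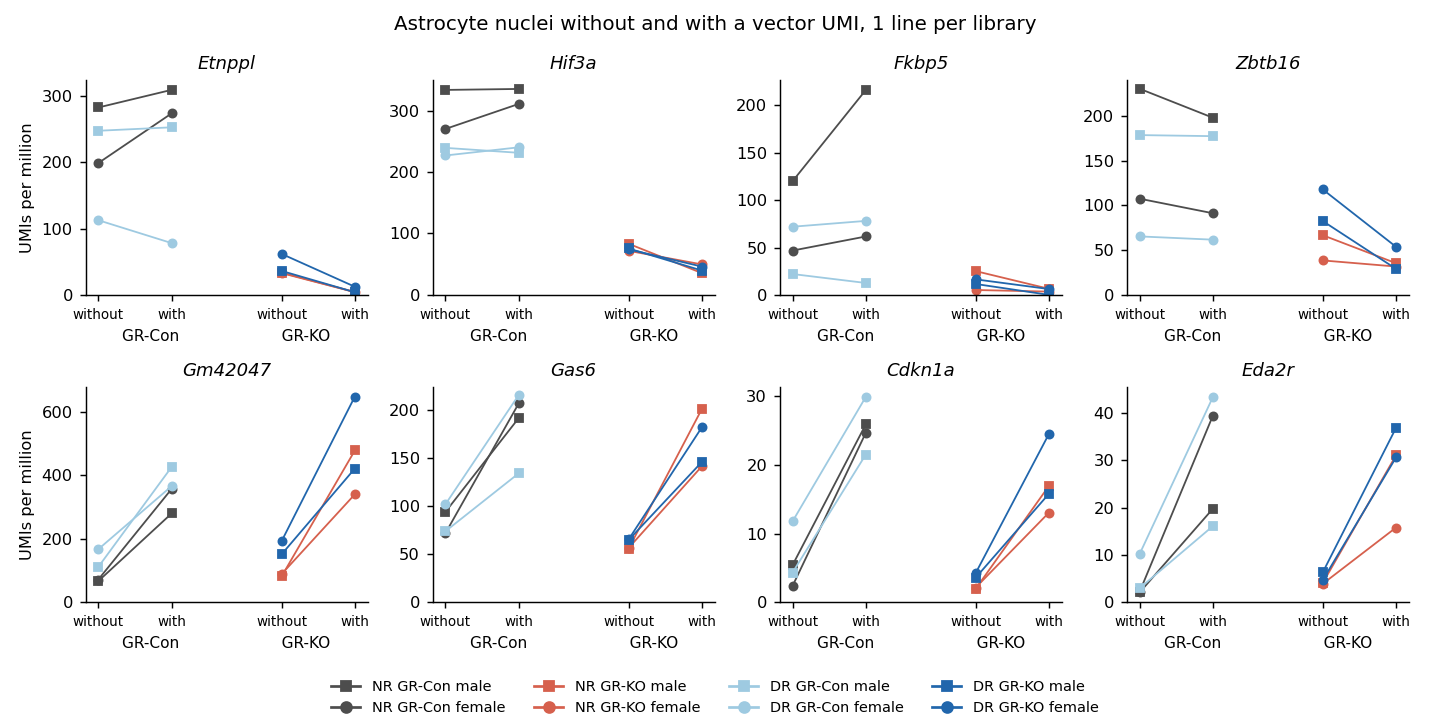
Levels of 8 genes in astrocyte nuclei without and with a vector UMI, as CPM, with a line joining the 2 values of each of the 8 libraries, GR-Con and GR-KO in separate colours. Etnppl falls to 3.95 to 12.3 CPM in GR-KO nuclei with a vector UMI and stays at 78.1 to 309 CPM in GR-Con, while Gm42047 and Cdkn1a rise in all 8 libraries.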

How the data were processed

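Nuclei of mouse V1 at P21 were profiled by droplet snRNA-seq in 8 libraries. The authors aligned reads with Cell Ranger 8.0.1 to mm10 with the vector sequences added, removed nuclei of low gene number, high UMI number or called as doublets, and clustered and named the nuclei in Seurat 5.3.0. The deposited matrix holds raw UMI counts per gene and nucleus, and the deposited cell table gives a cell type, the rearing, the genotype, and mitochondrial percent values, which entered no comparison. Doublets were treated only by the authors. No column was left without a match to a group (0 unmatched). Library names give rearing, vector and sex but not GEO's replicate number, so each library was placed in its group only. The sample protocol and the study's methods describe the sort differently, and a gate against GFP would lower the share of strongly labelled nuclei.

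Counts of astrocyte nuclei were summed per library in Python 3.11.15 with pandas 2.3.3. Each comparison was fitted over all genes with edgeR 4.0.16 in R 4.3.3 (filterByExpr, TMM factors, likelihood ratio test as in the study's methods, Benjamini-Hochberg adjustment, threshold 0.05), with the groups compared, with all 8 libraries for the interaction and the comparison over both genotypes, and with the library as a block for vector UMIs. SEs and 95% intervals are Wald values from the same fit. P-values rest on a spread between sums that edgeR estimates with information shared over all genes. Single comparisons have 2 libraries per group, and the vector comparison sets nuclei of the same library against each other. CPM values in the text use total astrocyte UMIs without TMM factors. Genes whose CPM in excitatory neurons was 4 or more times their astrocyte CPM were set apart. Scripts were tested on simulated data.

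In NR, the genes named were, in each direction, the 8 with the largest fold change and the 5 with the highest level among genes called by both the likelihood ratio and the quasi-likelihood tests, at an average log2 CPM of at least 5, with groups apart, autosomal and not neuron-enriched. Other comparisons named up to 5 by fold under the likelihood ratio test, with groups apart except for the interaction. The vector comparison named up to 8 called by both edgeR tests. Within a genotype all its libraries had to move the same way, and for the difference the genotypes had to be apart. Of 24 lists (472 genes), up to 4 members with the smallest p and 2 with the highest level were named, and further genes after their values were seen. The members and the lists were chosen with earlier results of these data known. Genes on the sex chromosomes were not named by rule. Some genes that the rules select are not reported here. Alternatives were edgeR's quasi-likelihood test, DESeq2 1.42.0, RLE factors, no count filter, a sex term, each library left out, nuclei with 0 excitatory marker UMIs, equal numbers of nuclei, a 2-fold neuron cut and a fit over all 8 libraries. Coordinates are those of GRCm38.p6. Precision is limited by 2 libraries per group, and Wilson intervals cover counting error only.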

Additional observations from a re-analysis of the deposited data

Results flagged for a closer look

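In 5 genes the genotype difference in astrocytes depended on rearing by the interaction term of the edgeR likelihood ratio test, and none of the 5 passed edgeR's quasi-likelihood test. Erbb4 had a log2 fold change of 1.37 in NR and -0.03 in DR, a difference of 1.40 (SE 0.30, edgeR adjusted p = 0.00279). Adarb2 was at 1.31 and -0.56 (difference 1.86, SE 0.42, edgeR adjusted p = 0.00474), and Dlx6os1 at 2.00 and -1.37 (difference 3.36, SE 0.93, edgeR adjusted p = 0.0433). These 3 genes stood at 9781, 5797 and 281 CPM in inhibitory neurons. Erbb4 was also at 4569 to 5067 CPM in oligodendrocytes of the NR libraries, and Adarb2 at 1835 to 2083 CPM in their OPCs. NR GR-KO astrocytes held the highest shares of inhibitory neuron, oligodendrocyte and OPC marker UMIs, and Adarb2 and Dlx6os1 are themselves on the inhibitory list. Rfc3, a clamp loader of DNA replication, was at 1.09 and -0.93 (difference 2.01, SE 0.53, edgeR adjusted p = 0.0268), from levels of only 2.09 to 5.67 CPM. Smim3 was at -1.21 and -0.24 (difference -0.98, SE 0.26, edgeR adjusted p = 0.041), and the part of other cells' RNA in these results was not tested.

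In 11 genes, named by size and with Smim3 again among them, the effect of carrying a vector UMI differed between GR-KO and GR-Con astrocytes, by both edgeR tests. Etnppl was at -2.83 in GR-KO and 0.04 in GR-Con (difference -2.87, edgeR adjusted p = 2.15e-24). Cdh19 was at -0.96 and 0.21 (difference -1.17, edgeR adjusted p = 5.74e-14), Hif3a at -0.86 and 0.05 (difference -0.90, edgeR adjusted p = 3.59e-07) and Lrrc8c at -0.83 and 0.01 (difference -0.84, edgeR adjusted p = 0.000155). Zbtb16 was at -0.94 and -0.13 (difference -0.80, edgeR adjusted p = 0.00133), Smim3 at -0.77 and 0.14 (difference -0.91, edgeR adjusted p = 0.00195) and Phyhd1 at -0.98 and 0.12 (difference -1.10, edgeR adjusted p = 0.0218). Ubash3b, a phosphatase of receptor signalling, was at -0.26 and 0.45 (difference -0.70, edgeR adjusted p = 0.00195). In the other direction Igfbp5 was at 0.07 and -1.17 (difference 1.24, edgeR adjusted p = 0.000164), Nnat at 0.83 and -0.33 (difference 1.16, edgeR adjusted p = 0.0121) and Rgma, a repulsive guidance gene, at 0.25 and -0.22 (difference 0.48, edgeR adjusted p = 0.01). Leaving out 1 library ended the call of Phyhd1 in 5 of 10 alternative fits, of Rgma in 4, of Nnat in 3 and of Smim3 and Zbtb16 in 1 each.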

How the results depend on the processing

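Counts of calls depended on the test and the libraries. Of 708 calls between the genotypes in NR, a sex term gave 1514, nuclei with 0 excitatory marker UMIs 240 and the fit over 8 libraries 372, and leaving out 1 library gave 384 to 579. In DR, 96 calls became 0 by the quasi-likelihood test, 56 by DESeq2, 209 with a sex term, 54 in nuclei with 0 excitatory marker UMIs and 185 over 8 libraries, and 6 to 2259 without 1 library, with 2259 without the DR GR-Con male library. Rearing in GR-Con (15 calls) gave 0, 8, 23, 8 and 47 in the same order, and 1 to 1137. Rearing in GR-KO (238) gave 145, 126, 493, 77 and 26, with 413 when neuron-enriched genes were counted in and 44 to 510 without 1 library. The interaction (5) gave 0 by the quasi-likelihood test, 17 with a sex term, 3 in nuclei with 0 excitatory marker UMIs, 57 with neuron-enriched genes counted in and 2 when genes enriched in inhibitory neurons were also set apart, and 0 to 723 without 1 library. Rearing over both genotypes (122) gave 3, 36 in nuclei with 0 excitatory marker UMIs, and 53 to 430. The difference from oligodendrocytes (335) gave 133 by the quasi-likelihood test and 160 to 336 without 1 library, and that from OPCs (253) gave 145 to 214. The vector comparison gave 251 to 425 of 470 calls in GR-KO, 82 to 106 of 130 in GR-Con and 17 to 46 of 34 for their difference. The cause of these changes was not tested. Gja1 between the genotypes in NR changed sign, to 0.0568 in nuclei with 0 excitatory marker UMIs, and was -0.167 to 0.12 without 1 library. The genotype difference in astrocyte share, 0.17 percentage points, was -7.05 over non-neuronal nuclei and -0.491 to 1.06 without 1 library, and the rearing difference, 0.722, was -0.0169 to 1.53. Of 312 refits of the 26 genes named in NR, 276 kept direction and call, 36 kept only direction and 0 reversed. The quasi-likelihood refits among them had to keep the call, since the genes were chosen by that test too. No paired analysis was possible because the library names carry no replicate number, and the sex term, which sets male beside male and female beside female libraries, is the nearest fit to it. The depth, 924 to 1794 nuclei per library, leaves genes of a few CPM uncertain.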
